A study of Homo sapiens with 9 samples.

Results

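The genes of oxidative phosphorylation were chosen by symbol and not by a measured value, although earlier results of these data were known at the time. They were the protein-coding genes whose GENCODE symbols begin with NDUF, UQCR or ATP5, the COX4 to COX8 families, SDHA to SDHD, CYC1 and the 13 protein-coding genes of the mitochondrial chromosome. This gave 113 genes of the 58395 gene identifiers counted. Of these, 100 are nuclear genes and 13 are mitochondrial. The nuclear genes comprised 78 subunits, 11 assembly factors or regulators, 8 isoforms usually found in other tissues or conditions, and 3 readthrough or copied genes. RNA came from MDA-MB-231, an established line of triple-negative breast cancer cells, 96 h after reverse transfection. The control group received a non-targeting siRNA (siNC), and the other groups received one of 2 siRNAs against ZIP7 (siZIP7_1 or siZIP7_2), with 3 libraries in each group. ZIP7, encoded by SLC39A7, releases zinc from the endoplasmic reticulum, and its knockdown was the treatment compared. All groups were 1 cell line grown in the same medium, and no label says whether the libraries of a group were separate cultures, so the p-values measure only the spread between these libraries.

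Oxidative phosphorylation takes place in the inner mitochondrial membrane. Complex I takes electrons from NADH and complex II takes them from succinate, and both pass them to ubiquinone. Complex III hands the electrons to cytochrome c and complex IV hands them to oxygen, while complex V, the ATP synthase, makes ATP from the proton gradient that complexes I, III and IV build. Every complex except complex II combines nuclear-encoded subunits, which are made in the cytosol and imported, with subunits that mitochondria transcribe and translate themselves.

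The target gene was checked first. SLC39A7 was at 321, 343 and 322 CPM (read counts scaled to a common library size with edgeR's TMM factors) with siNC, at 35.4, 32.9 and 38.6 CPM with siZIP7_1 and at 20.5, 19.5 and 17.6 CPM with siZIP7_2. The libraries held 24153785 to 30454419 gene counts each, and 16761 genes passed the low-count filter. VIM, CD44 and KRT18, which mark this line, were at 5529, 816 and 247 CPM with siNC, and changed by log2 values of -1.04, -0.81 and 0.59 with siZIP7_1 and -0.93, 1.14 and -0.39 with siZIP7_2. PGR had at most 2 counts in any library and ESR1 at most 15, whereas ERBB2 was at 74.2 CPM with siNC. The epithelial markers were not at the floor in every group. CDH1 was at 0.466 CPM with siNC, 4.18 with siZIP7_1 and 0.998 with siZIP7_2, and EPCAM was at 6.57, 9.68 and 4.42 CPM. The markers of leukocytes (PTPRC), endothelium (PECAM1) and fibroblasts (COL1A1) summed to 55.2 to 60.7 CPM in the siNC group, 108 to 116 in the siZIP7_1 group and 182 to 204 in the siZIP7_2 group, most of it COL1A1, and none of them was at 0 throughout. Within these sums PECAM1 was at 3.02, 0.102 and 8.63 CPM with siNC, siZIP7_1 and siZIP7_2, and PTPRC at 0.402, 0.875 and 0.327. The reads outside any gene made up 7.43 to 8.28% of reads with siNC, 7.80 to 9.62% with siZIP7_1 and 9.99 to 11.5% with siZIP7_2. These values moved with the groups, and their part in the results was not tested.

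In these cells the 2 genomes of oxidative phosphorylation moved apart with siZIP7_2. Of the 78 nuclear subunits, 50 were lower and 11 higher than with siNC, against 39.3% lower and 38.5% higher among all genes tested, while 12 of the 13 mitochondrial mRNAs were higher. With siZIP7_1, 34 nuclear subunits were lower and 13 higher, against 35.9% lower and 34.8% higher among all genes, and the mitochondrial mRNAs changed in both directions. Summed over the 78 nuclear subunits, the level was 6610, 6837 and 6598 CPM in the siNC group, 5863, 6231 and 6072 in the siZIP7_1 group and 5447, 5294 and 5543 in the siZIP7_2 group. The 3 groups did not overlap, and every siZIP7_2 library lay below every siZIP7_1 library. The 13 mitochondrial mRNAs summed to 21476, 18941 and 22064 CPM in the siNC group, 20090, 20870 and 20987 in the siZIP7_1 group and 28207, 26291 and 23588 in the siZIP7_2 group. Here the siZIP7_1 libraries lay within the siNC range, and the siZIP7_2 libraries lay above all others. The ratio of the mitochondrial to the nuclear sum was 3.12 ± 0.308 (SD, n = 3) with siNC, 3.41 ± 0.0554 with siZIP7_1 and 4.80 ± 0.484 with siZIP7_2. All of these are shares of each library, so a lower number of transcripts per cell and fewer cells that express them cannot be told apart.

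**Figure D1:**
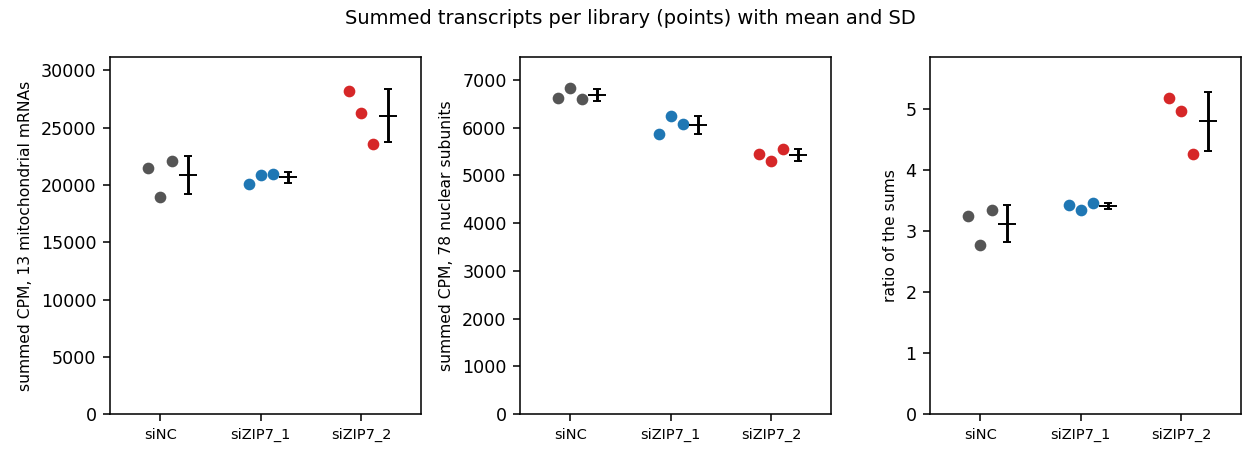
Summed CPM of the 13 mitochondrial mRNAs (left), of the 78 nuclear-encoded subunits (middle) and the ratio of the sums (right) in each library, with points for the 3 libraries of a group and a bar for the mean and SD. The nuclear sum steps down from siNC to siZIP7_1 to siZIP7_2, while the mitochondrial sum is higher only with siZIP7_2, where the ratio reaches 4.26 to 5.18.

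The low-count filter kept 104 of the 113 genes, 91 nuclear and all 13 mitochondrial. Each gene was tested with the quasi-likelihood test of edgeR, p-values were adjusted over all 16761 genes by the Benjamini-Hochberg method, and the threshold was 0.05, and a log2 fold change is given with its standard error (SE). With siZIP7_1, 16 of the 91 nuclear genes tested were higher than with siNC and 41 were lower, against 34.8% higher and 35.9% lower among all genes tested. Their median log2 fold change was -0.092, and that of all genes tested was -0.0069. With siZIP7_2, 13 of the nuclear genes were higher and 58 were lower, against 38.5% higher and 39.3% lower among all genes. Here the median was -0.32 for the nuclear genes and -0.0018 for all genes. The share of nuclear genes that were lower was thus 45.1% with siZIP7_1 and 63.7% with siZIP7_2. Of the 13 mitochondrial genes, 6 were higher and 3 lower with siZIP7_1 (median 0.0083), and 12 were higher and 0 lower with siZIP7_2 (median 0.36). With any 1 library left out, 4 to 5 were higher with siZIP7_1 and the median was -0.045 to 0.059, so its sign was not fixed. Both comparisons use the same 3 siNC libraries, so the siRNAs were also compared directly. In siZIP7_2 against siZIP7_1, 24 nuclear genes were higher and 48 lower (median -0.18), and 11 mitochondrial genes were higher and 0 lower (median 0.22), against 38.1% higher and 40.6% lower among all genes. Upper-quartile scaling, which moves the median of all genes to 0.10 with siZIP7_2, gave 20 nuclear genes higher and 52 lower there with a median of -0.22. DESeq2 gave 10 higher and 39 lower with siZIP7_1. In either direction these settings called 13059 of 16761 and 11079 of 33487 of all genes.

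**Figure D2:**
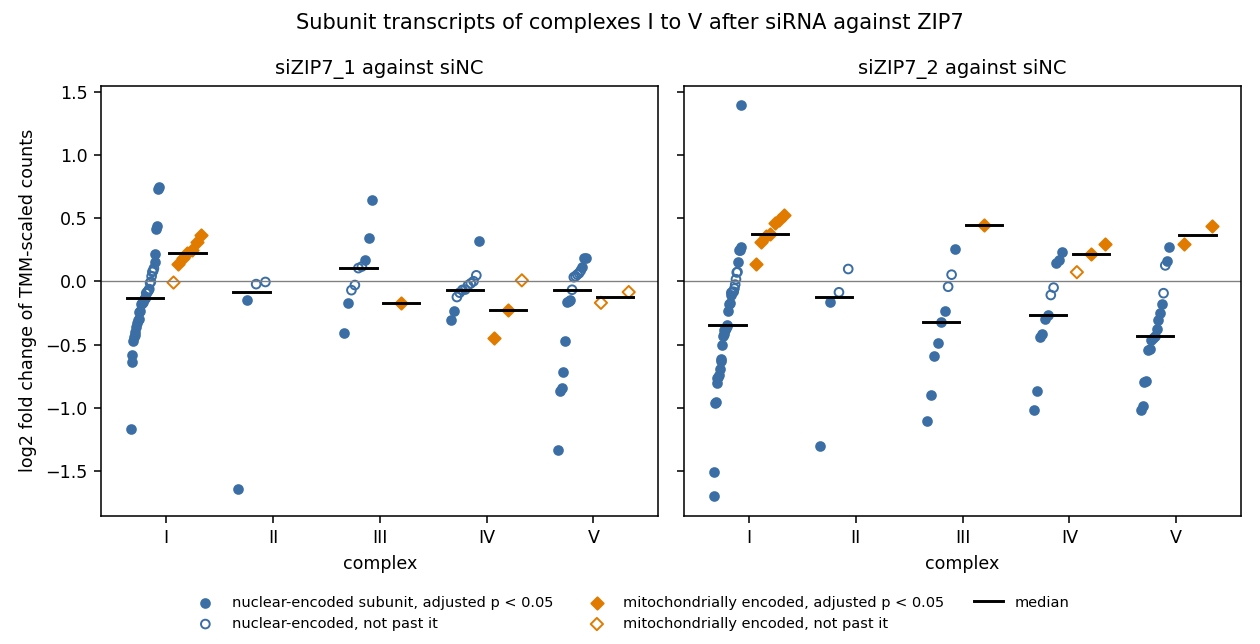
Log2 fold change of each tested subunit (vertical axis) by complex (horizontal axis) for siZIP7_1 and siZIP7_2 against siNC, with circles for nuclear-encoded and diamonds for mitochondrially encoded subunits, filled where the adjusted p-value was under 0.05 and with a line at each median. With siZIP7_2 the nuclear medians lie below 0 in every complex and the mitochondrial medians lie above 0 in complexes I, III, IV and V.

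Per kilobase of exonic length, the mitochondrial mRNAs stood far above the nuclear ones. In siNC they ranged from 657 CPM per kb for MT-ND6 to 2878 CPM per kb for MT-CO3. The nuclear subunits had a median of 28.4 CPM per kb and reached 303 CPM per kb for ATP5F1B. The ratio of mitochondrial to nuclear sums was also taken within each complex. It went from 5.07 ± 0.461 with siNC to 6.32 ± 0.0730 with siZIP7_1 and 7.84 ± 0.727 with siZIP7_2 in complex I. In complex III it went from 2.16 ± 0.245 to 1.95 ± 0.0239 and 3.94 ± 0.300. Complex IV gave 6.50 ± 0.693, 5.78 ± 0.0554 and 8.81 ± 0.973, and complex V gave 0.761 ± 0.0861, 0.826 ± 0.0641 and 1.28 ± 0.157 (SD, n = 3 each). The siZIP7_2 ratio was thus the highest in each of the 4 complexes that mix both genomes, with no overlap with the other groups. The siZIP7_1 libraries lay above all siNC libraries in complex I, within the siNC range in complexes III and IV, and across it in complex V.

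The mitochondrial genes that were higher with siZIP7_1 all belonged to complex I. MT-ND2, a core membrane subunit of complex I, was at 1526, 1455 and 1612 CPM in the siNC libraries, 1937, 2054 and 1944 in those of siZIP7_1 and 2373, 2209 and 2010 in those of siZIP7_2. No siNC library reached either siZIP7 group, and the log2 fold change was 0.37 (adjusted p = 9.52e-07, SE 0.056) with siZIP7_1 and 0.52 (adjusted p = 1.42e-09, SE 0.056) with siZIP7_2. MT-ND3, MT-ND5, MT-ND4L, MT-ND6 and MT-ND4 were higher with siZIP7_1 by log2 fold changes of 0.31, 0.25, 0.22, 0.18 and 0.14. MT-ND1, whose gene lies next to the ribosomal RNA genes, had a log2 fold change of -0.0093 (adjusted p = 0.892, SE 0.057). Thus 6 of the 7 complex I mRNAs were higher with siZIP7_1, although MT-ND4 and MT-ND6 were close to the threshold (adjusted p = 0.0481 and 0.0427). MT-ND4 fell short of it without any one of these libraries except siNC replicate 3, with values of 0.074 to 0.21. MT-ND6 fell short without siNC replicate 2 or 3 or siZIP7_1 replicate 1 or 3, with values of 0.078 to 0.28.

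MT-CO1, the subunit that holds the oxygen-reducing site of complex IV, went the other way with siZIP7_1. It was at 3257, 2830 and 3348 CPM in the siNC libraries, 2336, 2294 and 2281 in those of siZIP7_1 and 4194, 3863 and 3517 in those of siZIP7_2. All 3 siZIP7_1 libraries lay below siNC and all 3 siZIP7_2 libraries above it, with log2 fold changes of -0.45 (adjusted p = 1.62e-07, SE 0.061) and 0.29 (adjusted p = 7.66e-05, SE 0.061). Of all 13 genes it differed most between the siRNAs, by 0.74 (adjusted p = 4.93e-12, SE 0.061) for siZIP7_2 against siZIP7_1. MT-CYB, the only mitochondrial subunit of complex III, was at 1894, 1658 and 1945 CPM in the siNC libraries, 1579, 1649 and 1664 in those of siZIP7_1 and 2656, 2514 and 2303 in those of siZIP7_2. It was lower with siZIP7_1 (-0.17) and higher with siZIP7_2 (0.44), but siNC replicate 2 lay within the siZIP7_1 range. Its siZIP7_1 call was lost without siNC replicate 3 or siZIP7_1 replicate 1 (values of -0.23 to -0.11). MT-CO3 had a log2 fold change of -0.23 (adjusted p = 0.00558, SE 0.071) with siZIP7_1 and 0.073 (adjusted p = 0.350, SE 0.071) with siZIP7_2, where it was the one mitochondrial gene that missed the threshold. The former call was lost under DESeq2 and without siNC replicate 3 (values of -0.30 to -0.17). MT-CO2 was at 0.0083 with siZIP7_1 (adjusted p = 0.911) and rose by 0.22 with siZIP7_2. The complex V genes MT-ATP6 and MT-ATP8, which encode subunits of its membrane part, were at -0.084 and -0.17 with siZIP7_1 (adjusted p = 0.243 and 0.0725) and rose by 0.44 and 0.30 with siZIP7_2, the latter not under DESeq2. Without siNC replicate 2, the siNC library with the lowest mitochondrial sum, 5 mitochondrial genes were lower with siZIP7_1, and without siNC replicate 3 only 1 was, MT-CO1.

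With siZIP7_2 the 7 complex I genes were all higher, from 0.14 for MT-ND1 to 0.52 for MT-ND2, with MT-ND3 at 0.49, MT-ND4L at 0.46, MT-ND5 at 0.37, MT-ND4 at 0.36 and MT-ND6, the only one of the 13 on the other strand, at 0.31. The call for MT-ND1 (adjusted p = 0.0335) was lost without siNC replicate 1 or 2 or siZIP7_2 replicate 1 or 2, with values of 0.079 to 0.21. The mitochondrial ribosomal RNAs rose further than any of the mRNAs with siZIP7_2. MT-RNR1 was at 414, 422 and 416 CPM in the siNC libraries, 439, 520 and 433 in those of siZIP7_1 and 1018, 955 and 1025 in those of siZIP7_2, and its log2 fold change with siZIP7_2 was 1.26 (adjusted p = 5.17e-18, SE 0.056). MT-RNR2 rose by 0.26 with siZIP7_1 and by 1.04 with siZIP7_2. Together they took 0.470 ± 0.0364% of gene counts with siNC, 0.596 ± 0.0199% with siZIP7_1 and 1.00 ± 0.0604% with siZIP7_2, and the share outside genes was also highest with siZIP7_2. The part of these shares in the mitochondrial results was not tested. The nuclear genome carries copies of the mitochondrial genes, and 394 annotated copies drew 374 CPM in the siNC group, 349 in the siZIP7_1 group and 494 in the siZIP7_2 group. These copies took counts equal to 6.94% of the level of MT-ATP6, 5.10% of MT-CO1 and 5.02% of MT-ND2 in siNC, so some reads of those genes may be counted elsewhere. MT-ATP8 shares 22.2% of its length with MT-ATP6, so its level is uncertain.

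**Figure D3:**
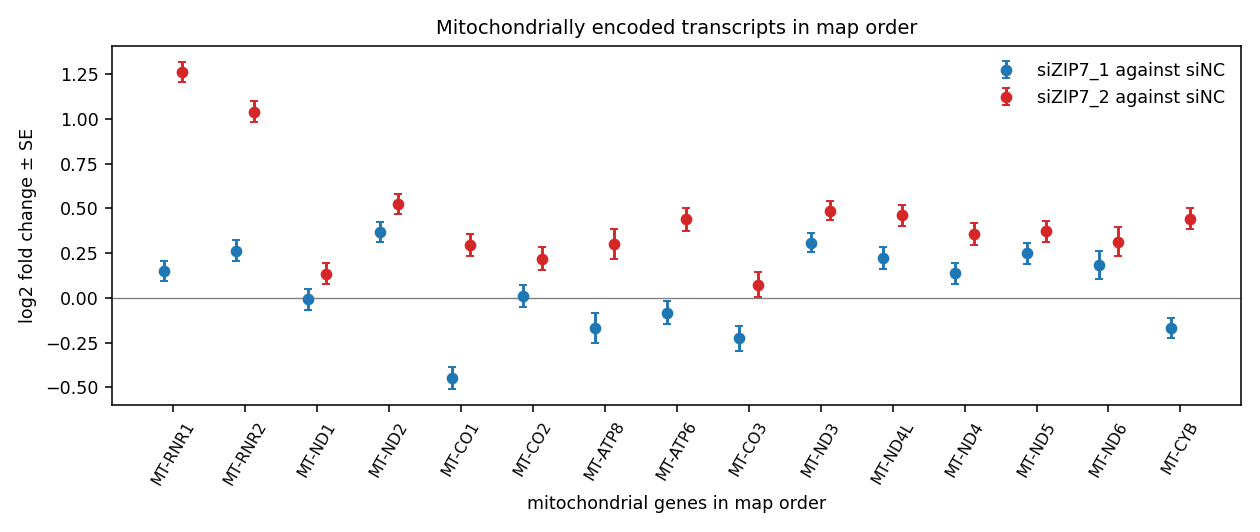
Log2 fold change against siNC with its SE (vertical axis) for the 2 mitochondrial ribosomal RNAs and the 13 mitochondrial mRNAs in the order in which they lie on the chromosome (horizontal axis), in blue for siZIP7_1 and red for siZIP7_2. The siZIP7_2 values are all above 0 and highest for the ribosomal RNAs, while the siZIP7_1 values fall below 0 from MT-CO1 to MT-CO3, except at MT-CO2, and at MT-CYB, with MT-ND1 close to 0.

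The promoters of 8 nuclear subunits that changed with 1 or both siRNAs are shown, so that their motifs can be compared. Each sequence is the RefSeq (GRCh38.p14) window around the start that RefSeq gives the gene, mostly upstream of it. The letters of motifs bound by factors known to drive respiratory genes were searched on both strands and are in capitals: GCGC, any 2 bases and GCGC for NRF1, CCGGAAG for ETS factors such as GABPA, and AANATGGCG for YY1. The first 3 belong to the subunits that were lowest with siZIP7_1 in complexes II, I and V. The next 3 were among the lowest with siZIP7_2 in complexes III, I and V. The last 2 had the highest log2 fold change with siZIP7_2 in complexes IV and V.
SDHD: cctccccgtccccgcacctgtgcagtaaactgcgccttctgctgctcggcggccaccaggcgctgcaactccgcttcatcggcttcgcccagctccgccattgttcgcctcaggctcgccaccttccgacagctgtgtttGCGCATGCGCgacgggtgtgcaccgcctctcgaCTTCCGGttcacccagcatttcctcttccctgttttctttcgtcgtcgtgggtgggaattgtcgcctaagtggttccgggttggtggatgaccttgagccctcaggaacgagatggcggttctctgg
NDUFA12: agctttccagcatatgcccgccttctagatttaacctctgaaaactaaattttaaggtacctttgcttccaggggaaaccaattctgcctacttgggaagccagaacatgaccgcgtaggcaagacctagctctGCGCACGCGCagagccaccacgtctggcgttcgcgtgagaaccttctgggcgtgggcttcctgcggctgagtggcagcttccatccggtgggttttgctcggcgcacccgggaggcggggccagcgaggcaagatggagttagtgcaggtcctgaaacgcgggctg
ATP5PO: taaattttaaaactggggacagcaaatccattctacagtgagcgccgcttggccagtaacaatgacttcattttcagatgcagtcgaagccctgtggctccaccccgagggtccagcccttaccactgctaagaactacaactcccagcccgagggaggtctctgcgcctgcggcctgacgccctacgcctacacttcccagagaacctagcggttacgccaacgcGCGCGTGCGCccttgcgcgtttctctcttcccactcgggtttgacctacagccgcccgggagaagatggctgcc
UQCRC2: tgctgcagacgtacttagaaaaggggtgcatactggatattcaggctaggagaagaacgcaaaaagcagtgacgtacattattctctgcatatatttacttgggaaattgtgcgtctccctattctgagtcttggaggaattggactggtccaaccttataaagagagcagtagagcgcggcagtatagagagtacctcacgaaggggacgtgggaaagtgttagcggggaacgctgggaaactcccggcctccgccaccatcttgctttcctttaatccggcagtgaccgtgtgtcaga
NDUFA3: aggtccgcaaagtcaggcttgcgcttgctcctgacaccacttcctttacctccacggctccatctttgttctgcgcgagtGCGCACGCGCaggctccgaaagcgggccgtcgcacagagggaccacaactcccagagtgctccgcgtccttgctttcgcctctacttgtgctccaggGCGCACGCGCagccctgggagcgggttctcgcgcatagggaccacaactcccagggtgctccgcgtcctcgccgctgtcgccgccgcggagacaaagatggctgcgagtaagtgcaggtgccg
ATP5MC2: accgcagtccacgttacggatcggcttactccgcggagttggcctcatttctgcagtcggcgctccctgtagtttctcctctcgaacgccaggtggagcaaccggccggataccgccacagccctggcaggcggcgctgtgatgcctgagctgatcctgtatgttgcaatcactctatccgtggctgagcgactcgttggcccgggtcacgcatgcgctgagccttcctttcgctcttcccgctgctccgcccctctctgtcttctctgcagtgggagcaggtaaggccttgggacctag
COX4I1: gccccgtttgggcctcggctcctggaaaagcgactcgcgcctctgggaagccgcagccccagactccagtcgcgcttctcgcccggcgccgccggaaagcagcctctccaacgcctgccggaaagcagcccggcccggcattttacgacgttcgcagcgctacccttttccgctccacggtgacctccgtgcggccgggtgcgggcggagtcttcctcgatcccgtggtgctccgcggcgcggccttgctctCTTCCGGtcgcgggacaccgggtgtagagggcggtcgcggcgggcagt
ATP5MG: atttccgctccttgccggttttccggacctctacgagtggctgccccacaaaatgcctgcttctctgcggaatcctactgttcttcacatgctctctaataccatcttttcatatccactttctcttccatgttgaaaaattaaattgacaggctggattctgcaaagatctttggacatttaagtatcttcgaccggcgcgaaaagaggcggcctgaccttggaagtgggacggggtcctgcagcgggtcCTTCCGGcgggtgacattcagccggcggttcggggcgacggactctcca

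These windows lie at chr11:112086623-112086922, plus strand (SDHD), chr12:95003648-95003947, minus strand (NDUFA12), chr21:33915755-33916054, minus strand (ATP5PO), chr16:21953111-21953410, plus strand (UQCRC2), chr19:54102605-54102904, plus strand (NDUFA3), chr12:53676034-53676333, minus strand (ATP5MC2), chr16:85799445-85799744, plus strand (COX4I1) and chr11:118401356-118401655, plus strand (ATP5MG). The NRF1 letters stood in the promoters of SDHD, NDUFA12 and ATP5PO and in 2 places in that of NDUFA3. The ETS letters, here read on the minus strand as CTTCCGG, stood in those of SDHD, COX4I1 and ATP5MG. The windows of UQCRC2 and ATP5MC2 held none of these letters. Not every complex is shown, and those left out did not repeat this layout. COX7C, the lowest subunit of complex IV with both siRNAs, held none of the letters. With siZIP7_2 the highest subunits of complexes I, II and III were NDUFV2, SDHA and UQCRFS1. NDUFV2 held YY1 letters, SDHA NRF1 letters and UQCRFS1 both, and none of them held ETS letters. GENCODE 29 gives some genes a start further upstream, and for UQCRC2, ATP5MC2, COX4I1 and ATP5MG this start lies 451, 1075, 812 and 202 bases before the window, which is then wholly inside the gene. A promoter was found for 64 of the 78 nuclear subunits, 18 of them with such a window, and the 14 without one include NDUFB5 and SDHC. Of these, 26.6% held the NRF1 letters, 31.2% the ETS letters and 25.0% the YY1 letters, against 8.32%, 10.3% and 3.19% of all 35116 promoters and 10.6%, 12.8% and 4.24% of the 22199 promoters of protein-coding genes. Among the 40 subunits with a promoter that were lower with siZIP7_2, 27.5% held NRF1, 25.0% ETS and 17.5% YY1 letters, and among the other 24 the shares were 25.0%, 41.7% and 37.5%. With siZIP7_1 they were 23.3%, 26.7% and 23.3% among the 30 that were lower and 29.4%, 35.3% and 26.5% among the other 34, and none of these differences was tested. These are matches of letters and say nothing of binding.

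Complex I has 37 nuclear subunits, all tested. With siZIP7_1, 6 were higher and 20 lower, with a median log2 fold change of -0.13, where 34.8% of all genes were higher and 35.9% lower. With siZIP7_2, 5 were higher and 23 lower, with a median of -0.35, where the shares of all genes were 38.5% and 39.3%. The lowest with siZIP7_1 was NDUFA12, an accessory subunit added late in assembly. It was at 65.9, 71.5 and 63.1 CPM in the siNC libraries, 26.4, 31.5 and 31.0 in those of siZIP7_1 and 49.95, 50.1 and 49.7 in those of siZIP7_2. The groups did not overlap, and siZIP7_2 lay between the others, with log2 fold changes of -1.17 (adjusted p = 3.16e-16, SE 0.062) and -0.42 (adjusted p = 3.00e-07, SE 0.060) against siNC. NDUFB5, an accessory subunit of the membrane arm (chromosome 3, 179604690 to 179627647 in GENCODE 29 of GRCh38), was the lowest with siZIP7_2. It was at 51.3, 52.3 and 57.4 CPM in the siNC libraries, 52.8, 63.9 and 54.1 in those of siZIP7_1 and 18.3, 14.8 and 16.6 in those of siZIP7_2. Its siNC and siZIP7_1 values overlapped, and the log2 fold change with siZIP7_2 was -1.70 (adjusted p = 6.99e-18, SE 0.077), against 0.083 (adjusted p = 0.276, SE 0.068) with siZIP7_1. NDUFA5, an accessory subunit of the arm that takes up NADH, changed direction between the siRNAs. It was at 19.8, 19.8 and 23.3 CPM in the siNC libraries, 33.4, 38.3 and 33.0 in those of siZIP7_1 and 15.3, 14.6 and 14.6 in those of siZIP7_2. It was the highest nuclear subunit of the complex at a level above 1 CPM with siZIP7_1 (0.73, adjusted p = 3.63e-10, SE 0.072) and was lower with siZIP7_2 (-0.50, adjusted p = 1.56e-06, SE 0.079).

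The nuclear core subunits of complex I form the arm that carries the electrons, and the accessory subunits surround the core. Over the 7 nuclear core subunits the median was -0.093 with siZIP7_1 and -0.089 with siZIP7_2, and over the 30 accessory subunits it was -0.14 and -0.36, a difference that was not tested. NDUFV1, which binds NADH, was at 146, 146 and 142 CPM in the siNC libraries, 136, 136 and 136 in those of siZIP7_1 and 135, 136 and 137 in those of siZIP7_2. Both siZIP7 groups lay just below siNC, by log2 fold changes of -0.092 (adjusted p = 0.0615, SE 0.044) and -0.089 (adjusted p = 0.0651, SE 0.044), which did not pass the threshold. NDUFS1, which carries electrons towards ubiquinone, was lower with siZIP7_2 (-0.35), with a value of 0.075 with siZIP7_1 (adjusted p = 0.135). NDUFS8, an iron-sulfur subunit, was lower with both siRNAs (-0.30 and -0.75). NDUFS7 was lower with siZIP7_1 (-0.17), a call lost without siNC replicate 2 (range -0.20 to -0.13 over the libraries left out), and higher with siZIP7_2 (0.27), and 49.1% of its length overlaps other genes. NDUFV2, an iron-sulfur subunit of the NADH module, had the highest log2 fold change with siZIP7_2. It was at 1.56, 1.59 and 1.32 CPM in the siNC libraries, 1.71, 1.99 and 2.29 in those of siZIP7_1 and 4.23, 4.15 and 3.31 in those of siZIP7_2, with log2 fold changes of 0.44 (adjusted p = 0.0416, SE 0.19) and 1.39 (adjusted p = 2.16e-08, SE 0.17). Its siZIP7_1 call was lost without siNC replicate 1 or 3 or siZIP7_1 replicate 2 or 3, with values of 0.32 to 0.53. The pseudogene NDUFV2P1 drew 2.40 CPM in the siNC group, 2.54 in the siZIP7_1 group and 1.44 in the siZIP7_2 group, which is 161% of the gene's own level in siNC, so reads may be split between them and the NDUFV2 values are uncertain. NDUFA7 was below 1 CPM in every library, at 0.327, 0.301 and 0.427 CPM in the siNC libraries, 0.583, 0.550 and 0.659 in those of siZIP7_1 and 0.0776, 0.164 and 0.115 in those of siZIP7_2, and 33.5% of its length overlaps other genes.

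In complex II, which is wholly nuclear-encoded, 2 of the 4 subunits were lower and 0 higher with each siRNA, where 35.9% and 39.3% of all genes were lower. The lowest was SDHD with siZIP7_1 and SDHC with siZIP7_2. SDHD and SDHC form its membrane anchor, where ubiquinone binds. SDHD was at 25.9, 27.8 and 32.3 CPM in the siNC libraries, 9.14, 8.76 and 9.60 in those of siZIP7_1 and 25.1, 25.7 and 26.1 in those of siZIP7_2. The siZIP7_1 libraries lay far below the others, with a log2 fold change of -1.64 (adjusted p = 5.66e-17, SE 0.081), the lowest of the 91 nuclear genes of the pathway tested with that siRNA. With siZIP7_2 the value was -0.16 (adjusted p = 0.0422, SE 0.072), and this call was lost under DESeq2, under each other scaling tried and without siNC replicate 3 or any 1 siZIP7_2 library (values of -0.24 to -0.059). SDHC (chromosome 1, 161314257 to 161375340 in GENCODE 29 of GRCh38) was at 44.8, 48.5 and 48.5 CPM in the siNC libraries, 44.9, 46.2 and 50.1 in those of siZIP7_1 and 20.3, 18.1 and 19.3 in those of siZIP7_2. Its siNC and siZIP7_1 ranges overlapped, and the log2 fold change was -0.0046 (adjusted p = 0.947, SE 0.058) with siZIP7_1 and -1.30 (adjusted p = 4.89e-17, SE 0.064) with siZIP7_2. Compared directly, siZIP7_2 against siZIP7_1 gave 1.48 (adjusted p = 4.80e-16, SE 0.082) for SDHD and -1.29 (adjusted p = 3.23e-17, SE 0.064) for SDHC, in opposite directions. SDHA, the flavoprotein that oxidizes succinate, was at -0.022 with siZIP7_1 and 0.10 with siZIP7_2, with adjusted p-values of 0.689 and 0.0548. SDHB, the iron-sulfur subunit, was at -0.15 (adjusted p = 0.00893, SE 0.049) with siZIP7_1, a call lost without siNC replicate 1 (range -0.16 to -0.13), and at -0.086 (adjusted p = 0.109, SE 0.049) with siZIP7_2.

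**Figure D4:**
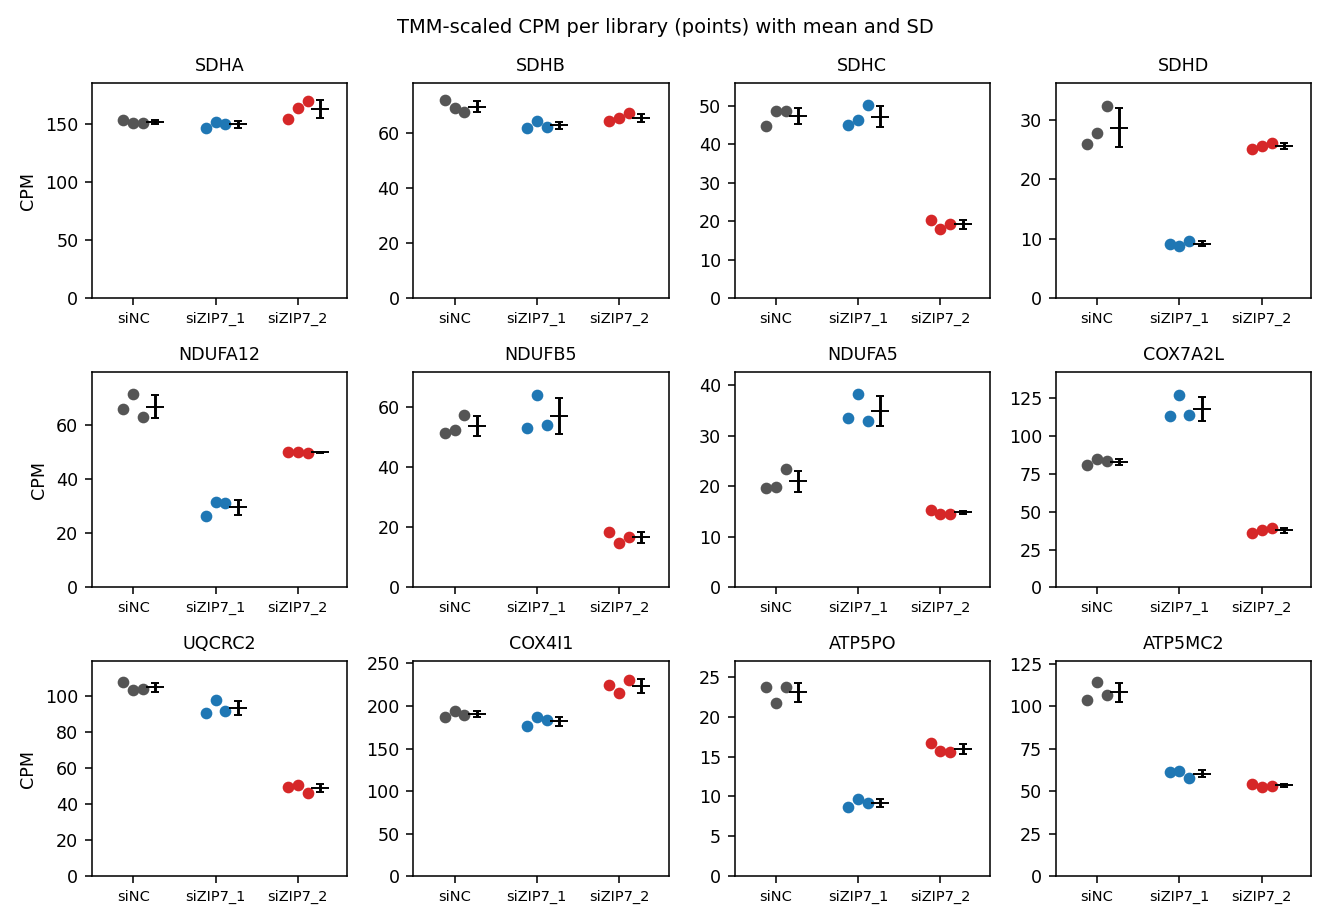
TMM-scaled CPM (vertical axes, from 0) of 12 nuclear genes in each library, with points for the 3 libraries of a group and a bar for the mean and SD. SDHD, NDUFA12 and ATP5PO are lowest with siZIP7_1, SDHC, NDUFB5, COX7A2L and UQCRC2 are lowest with siZIP7_2, ATP5MC2 is low with both, and COX4I1 is highest with siZIP7_2.

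Complex III had 9 nuclear subunits tested. With siZIP7_1, 3 were higher and 2 lower, with a median log2 fold change of 0.11, and with siZIP7_2, 1 was higher and 6 were lower, with a median of -0.32. Of all genes, 34.8% were higher and 35.9% lower with siZIP7_1, and 38.5% and 39.3% with siZIP7_2, so the count that was higher with siZIP7_1 was near that share. It was the one complex whose nuclear median was above 0 with siZIP7_1. UQCRC2, one of the large core proteins, was at 108, 103 and 104 CPM in the siNC libraries, 90.4, 97.8 and 91.5 in those of siZIP7_1 and 49.4, 50.8 and 46.3 in those of siZIP7_2. The siZIP7_2 libraries lay near 46.6% of siNC, with a log2 fold change of -1.10 (adjusted p = 1.40e-17, SE 0.051), against -0.17 (adjusted p = 0.00312, SE 0.049) with siZIP7_1. UQCRC1, its partner core protein, was higher with siZIP7_1 (0.17) and lower with siZIP7_2 (-0.24). CYC1, the cytochrome c1 subunit, was at 242, 253 and 225 CPM in the siNC libraries, 177, 183 and 182 in those of siZIP7_1 and 160, 158 and 161 in those of siZIP7_2. It was lower in both groups, with log2 fold changes of -0.41 (adjusted p = 7.25e-09, SE 0.047) and -0.59 (adjusted p = 3.47e-12, SE 0.047). UQCRFS1, the Rieske iron-sulfur protein, was higher with both siRNAs (0.34 and 0.26) at 66.5 ± 1.90, 84.2 ± 3.09 and 79.6 ± 3.29 CPM (SD, n = 3). UQCR10, a small accessory subunit, was at 45.9, 46.6 and 46.7 CPM in the siNC libraries, 68.8, 72.9 and 75.3 in those of siZIP7_1 and 49.4, 45.9 and 49.2 in those of siZIP7_2, so that only the siZIP7_1 libraries stood apart (0.64, adjusted p = 5.67e-12, SE 0.052 with siZIP7_1). UQCRH, the hinge protein, was at -0.069 and -0.042, with adjusted p-values of 0.238 and 0.467.

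In complex IV, 1 of 11 nuclear subunits was higher and 2 were lower with siZIP7_1, with a median of -0.065. With siZIP7_2, 3 were higher and 6 lower, with a median of -0.27. The shares of all genes were 34.8% higher and 35.9% lower with siZIP7_1 and 38.5% and 39.3% with siZIP7_2. COX7C, a small membrane subunit, was at 141, 152 and 136 CPM in the siNC libraries, 110, 121 and 116 in those of siZIP7_1 and 70.9, 66.8 and 74.1 in those of siZIP7_2. The groups stepped down without overlap, with log2 fold changes of -0.30 (adjusted p = 6.65e-06, SE 0.052) with siZIP7_1 and -1.02 (adjusted p = 1.88e-16, SE 0.053) with siZIP7_2. COX4I1, the largest nuclear subunit and a site of regulation by ATP, was at 187, 194 and 190 CPM in the siNC libraries, 177, 187 and 183 in those of siZIP7_1 and 225, 215 and 231 in those of siZIP7_2. It was higher with siZIP7_2 (0.23, adjusted p = 4.33e-05, SE 0.046) in every library, while COX5A was lower (-0.30, adjusted p = 1.20e-05, SE 0.054) and neither passed the threshold with siZIP7_1 (-0.065 and -0.031). COX7A2L, which helps join complexes III and IV into supercomplexes and was counted as a regulator, changed in opposite directions with the siRNAs. It was at 80.7, 84.6 and 83.5 CPM in the siNC libraries, 113, 127 and 114 in those of siZIP7_1 and 36.2, 38.0 and 39.4 in those of siZIP7_2. The siZIP7_1 libraries lay above siNC and the siZIP7_2 libraries below it, with log2 fold changes of 0.51 (adjusted p = 6.31e-10, SE 0.052) and -1.13 (adjusted p = 5.12e-17, SE 0.056).

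In complex V, 13 of 17 nuclear subunits were lower with siZIP7_2 and 2 were higher, with a median of -0.43. With siZIP7_1, 8 were lower and 3 higher, with a median of -0.066. Among all genes 39.3% were lower and 38.5% higher with siZIP7_2, and 35.9% and 34.8% with siZIP7_1. ATP5PO, the stalk protein that ties the catalytic head to the membrane part, was at 23.7, 21.7 and 23.7 CPM in the siNC libraries, 8.70, 9.65 and 9.16 in those of siZIP7_1 and 16.7, 15.7 and 15.6 in those of siZIP7_2. It was lowest with siZIP7_1 (-1.33, adjusted p = 1.96e-15, SE 0.076) and fell less with siZIP7_2 (-0.53, adjusted p = 1.15e-07, SE 0.072), and 25.4% of its length overlaps other genes. The 3 genes for subunit c, which encode the same rotor protein, did not move together. ATP5MC1 was at 68.0, 68.1 and 64.3 CPM in the siNC libraries, 39.5, 40.4 and 41.6 in those of siZIP7_1 and 38.9, 36.4 and 40.3 in those of siZIP7_2, and ATP5MC2 was lower with both siRNAs as well, with log2 fold changes of -0.84 (adjusted p = 5.17e-15, SE 0.050) and -1.01 (adjusted p = 7.63e-17, SE 0.051). ATP5MC3 was higher with siZIP7_1 (0.19, adjusted p = 0.00319, SE 0.054) and lower with siZIP7_2 (-0.45, adjusted p = 2.26e-08, SE 0.056). Of the catalytic head, ATP5F1A was at -0.066 with siZIP7_1 (adjusted p = 0.202) and -0.55 with siZIP7_2, and ATP5F1B was lower with both, at -0.48 and -0.18. These encode the alpha and the beta subunit, and siZIP7_2 against siZIP7_1 gave -0.48 (adjusted p = 1.63e-10, SE 0.046) for ATP5F1A and 0.30 (adjusted p = 1.48e-06, SE 0.047) for ATP5F1B. ATP5MF, an accessory membrane subunit, was at 52.0, 52.7 and 54.3 CPM in the siNC libraries, 55.6, 58.5 and 58.3 in those of siZIP7_1 and 27.4, 26.3 and 26.4 in those of siZIP7_2. It fell to near 50.4% of siNC with siZIP7_2, and its small rise with siZIP7_1 (0.12, adjusted p = 0.0409) was lost under DESeq2 and without siNC replicate 1 or 2 or siZIP7_1 replicate 2 or 3 (values of 0.10 to 0.15). ATP5MG and ATP5F1D were the highest with siZIP7_2 and siZIP7_1, at 0.27 and 0.19.

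The 11 assembly factors and regulators included 8 NDUFAF genes, which build complex I. Of these 8, 1 was higher and 5 were lower with each siRNA, where 34.8% and 38.5% of all genes were higher and 35.9% and 39.3% lower. NDUFAF4 was the lowest, at 25.4, 28.4 and 26.6 CPM in the siNC libraries, 11.8, 14.6 and 12.7 in those of siZIP7_1 and 8.93, 9.54 and 8.96 in those of siZIP7_2. The 3 groups stepped down without overlap, with values of -1.04 (adjusted p = 9.12e-13, SE 0.078) and -1.55 (adjusted p = 2.98e-16, SE 0.082) against siNC. NDUFAF3, which acts together with NDUFAF4, was lower too (-0.44 and -1.04). NDUFAF1 was higher with siZIP7_1 (0.23, against -0.046 with siZIP7_2), and NDUFAF7 with siZIP7_2 (0.23, against -0.011). ATP5IF1, the inhibitor that stops ATP synthase from running in reverse, was at 109, 109 and 106 CPM in the siNC libraries, 80.4, 84.0 and 93.6 in those of siZIP7_1 and 65.8, 58.9 and 64.5 in those of siZIP7_2, and was lower with both, with log2 fold changes of -0.33 (adjusted p = 4.45e-06, SE 0.054) and -0.78 (adjusted p = 2.55e-13, SE 0.056).

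The isoforms of other tissues stayed at or near the floor of detection. COX4I2, COX6A2, COX7A1, COX7B2 and COX8C had at most 1 count in any library, and NDUFA4L2, an isoform induced by hypoxia, had at most 4. UQCRHL was below 1 CPM throughout, at -0.19 and 0.033 with adjusted p-values of 0.665 and 0.937. COX6B2, the testis form of a complex IV subunit, was the exception. It had 3, 0 and 2 counts with siNC, 4, 10 and 6 counts with siZIP7_1, and 21, 45 and 25 counts with siZIP7_2. The siZIP7_2 libraries reached 0.815, 1.48 and 0.961 CPM, above every other library, while COX6B1, the form of most tissues, was at 101 ± 4.37 CPM in the siNC and 97.7 ± 5.96 CPM in the siZIP7_2 libraries (SD, n = 3). Against siZIP7_1 the log2 fold change of COX6B2 was 2.26 (adjusted p = 2.53e-06, SE 0.37). Its siZIP7_1 call against siNC was lost under DESeq2 and without siNC replicate 2 or 3 or siZIP7_1 replicate 2 (values of 1.30 to 2.41), and 30.9% of its length overlaps another gene. The readthrough genes NDUFC2-KCTD14 and ATP5MF-PTCD1 and the copied gene ATP5MGL had at most 0, 7 and 2 counts.

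The genes around the pathway were read from lists by function, whose counts stand against 34.8% of all genes higher and 35.9% lower with siZIP7_1, and 38.5% and 39.3% with siZIP7_2. Of 45 tested assembly factors outside the symbols used here, 10 were higher and 20 lower with siZIP7_1, and 5 were higher and 29 lower with siZIP7_2. LYRM7, which handles the Rieske protein before it enters complex III, was the lowest with both (-1.63 and -1.66), and COA1 was the highest with siZIP7_2 (0.94). SCO2 had the highest value with siZIP7_1 (1.01, adjusted p = 0.0707, SE 0.50) but missed the threshold, and its mean level was low, 0.179 CPM in the siNC and 0.362 CPM in the siZIP7_1 libraries. Of 18 genes listed under mitochondrial DNA replication and transcription, 1 was higher and 10 lower with siZIP7_1, and 2 were higher and 11 lower with siZIP7_2. POLRMT, the mitochondrial RNA polymerase, was at 41.6, 41.2 and 40.9 CPM in the siNC libraries, 40.9, 37.9 and 41.0 in those of siZIP7_1 and 57.2, 54.2 and 56.7 in those of siZIP7_2, so the siZIP7_2 libraries stood above the others (0.44, adjusted p = 1.49e-08, SE 0.053). POLG, the DNA polymerase, was the other gene that was higher with siZIP7_2 (0.80), while TWNK, the helicase, was lower with both (-0.96 and -1.11). TFB1M, which is on this list but methylates mitochondrial ribosomal RNA, was higher with siZIP7_1 (0.37) and lower with siZIP7_2 (-1.30). Of 26 genes for the processing and stability of mitochondrial RNA, 3 were higher and 17 lower with siZIP7_1, and 5 were higher and 20 lower with siZIP7_2. MRM1, which methylates mitochondrial ribosomal RNA, was the lowest with both (-1.29 and -1.67), and the highest were PTCD3 with siZIP7_1 (0.31) and KIAA0391 with siZIP7_2 (0.83). LRPPRC, which stabilizes mitochondrial mRNAs, was at 311, 307 and 305 CPM in the siNC libraries, 266, 292 and 261 in those of siZIP7_1 and 129, 154 and 146 in those of siZIP7_2. It was lower with both, slightly with siZIP7_1 (-0.17, adjusted p = 0.00595, SE 0.054) and more with siZIP7_2 (-1.10, adjusted p = 8.15e-17, SE 0.056).

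Of 12 tested nuclear regulators of respiratory genes, 3 were higher and 8 lower with siZIP7_1, and 2 were higher and 7 lower with siZIP7_2, where the shares of all genes were 34.8% and 35.9%, and 38.5% and 39.3%. NRF1 was lower with both (-0.70 and -0.39), as was GABPA (-0.46 and -0.58), and GABPB2 was the lowest of the list (-1.67 and -1.77). PPRC1, a coactivator of NRF1, was at 214, 213 and 196 CPM in the siNC libraries, 82.9, 81.3 and 82.9 in those of siZIP7_1 and 93.0, 88.3 and 91.7 in those of siZIP7_2. PPARGC1A, the coactivator PGC-1alpha, was low in all groups and was higher with siZIP7_1 (1.01, adjusted p = 3.44e-08, SE 0.13). PPARA was the highest of the list with both siRNAs (1.63 and 0.67). Among 15 genes for ubiquinone and cytochrome c, 6 were higher and 7 lower with siZIP7_1, and 2 were higher and 12 lower with siZIP7_2, from PDSS1 (-0.71) to COQ8B (0.83) and from COQ3 (-1.54) to COQ10B (0.87), with CYCS, cytochrome c itself, at -0.16 and -0.55. A list of 16 genes joined the citric acid cycle with pyruvate dehydrogenase, which feeds it (PDHA1, PDHB and DLAT). Among them, 5 were higher and 6 lower with siZIP7_1, near the shares of all genes, and 3 were higher and 11 lower with siZIP7_2. PDHA1, PDHB and DLAT were among the lower genes with siZIP7_2 (-0.60, -0.88 and -0.48). The highest were SUCLG2 with siZIP7_1 (0.44) and IDH3G with siZIP7_2 (0.63). CS, citrate synthase, was the lowest of that list with both siRNAs, at 140, 142 and 139 CPM in the siNC libraries, 39.7, 38.7 and 38.5 in those of siZIP7_1 and 53.6, 55.9 and 54.8 in those of siZIP7_2, with log2 fold changes of -1.85 (adjusted p = 1.98e-23, SE 0.048) and -1.36 (adjusted p = 1.30e-20, SE 0.047).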

How the data were processed

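Single reads were sequenced by the authors from 9 libraries, and they deposited raw read counts for each Ensembl gene with no normalization. Per the labels, the submitters' processing notes name Trim Galore 0.4.1, FastQC 0.11.2, STAR, HTSeq 0.6.1 and DESeq2 1.16.1. The genome build, annotation release and strand setting are not given in the sources used here. HTSeq's summary lines were left out, and they list 0 reads with several alignments. Of 58395 identifiers, 58275 were in GENCODE 29 (GRCh38), which gave symbols, lengths and overlaps.

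The tests were run on these counts by edgeR 4.0.16 in R 4.3.3 (TMM, filterByExpr, 1 quasi-likelihood fit of all 9 libraries with 6 residual degrees of freedom, Benjamini-Hochberg adjustment at 0.05) and checked on simulated counts. The simulation changed only a small part of the genes, up and down alike. It therefore does not check the scaling for data like these, where most genes passed the threshold. The biological coefficient of variation was 4.5%. A floor of 3 counts was 0.0985 to 0.124 CPM, and covers counting error only. The genes and lists were chosen with earlier results of these data known. Named genes were the target, the 13 mitochondrial genes, catalytic subunits, isoforms, and the highest and lowest in each complex and contrast at a mean of at least 1 CPM and in each pathway list (among them CS, LYRM7, TWNK and GABPB2), while the other genes named (NDUFS8, NDUFA3, NDUFA7, ATP5MC1, ATP5MC3, COX6B1, ATP5IF1, the NDUFAF genes, NRF1, GABPA, PPRC1, PPARGC1A, CYCS, POLRMT, LRPPRC, MT-RNR1 and MT-RNR2) were chosen after their values were seen. The values of 1 gene named by the rule are not reported here. Motif letters were searched in RefSeq promoters of GRCh38.p14, matched by Ensembl identifier or, failing that, by symbol or a unique synonym. The alternatives were other scalings, filters, tests and samples, DESeq2 1.42.0 and a replicate block. Leaving out members of which other genes overlap at least 20% was added after the data were seen.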

Additional observations from a re-analysis of the deposited data

How the results depend on the processing

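By the sign of their fold changes, the nuclear genes were mostly lower and the mitochondrial genes mostly higher with siZIP7_2 under each alternative. The counts that passed the threshold varied between the alternatives. A test against a 1.2-fold change (glmTreat) left, with siZIP7_1, 6 nuclear genes higher, 18 lower, 1 mitochondrial gene higher and 1 lower. With siZIP7_2 it left 2 nuclear and 7 mitochondrial genes higher. In siZIP7_2 against siZIP7_1 it left 10 nuclear and 4 mitochondrial genes higher. The lower nuclear genes of the siZIP7_2 comparisons under this test are not listed here. Over all 16761 genes it called 8574, 10284 and 10559 in these comparisons, in either direction. DESeq2 gave 10 nuclear genes higher with siZIP7_1, where it called 11079 of 33487 genes in either direction. With siZIP7_2, the nuclear genes that were higher numbered 20 under upper-quartile scaling, 7 with no low-count filter, where more genes were tested, and 8 without members overlapped by other genes, where fewer were counted. Upper-quartile scaling called 13059 of 16761 genes there in either direction, and the fit with no filter called 14115 of 33487. The median of the nuclear genes with siZIP7_2 was -0.29 with DESeq2's size factors, -0.22 with upper-quartile scaling, -0.37 with no filter, -0.26 with at least 10 counts in every library and -0.30 with DESeq2. In siZIP7_2 against siZIP7_1 it was -0.14, -0.097, -0.31 and -0.24 with DESeq2's size factors, upper-quartile scaling, no filter and DESeq2. The median of all genes moved too. With siZIP7_2 it was -0.0018 in the main fit, and 0.030, 0.10, 0.039, -0.0073 and 0.11 in the same order of alternatives. In siZIP7_2 against siZIP7_1 it was -0.022 in the main fit, and 0.013, 0.058, 0.046 and 0.13. The cause of these shifts was not tested. Leaving out each library in turn gave 1 to 5 mitochondrial genes lower with siZIP7_1, and nuclear medians of -0.36 to -0.31 with siZIP7_2 and -0.22 to -0.17 in siZIP7_2 against siZIP7_1.

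Values near 0 that had not passed the threshold changed sign. With siZIP7_1, upper-quartile scaling gave 0.0044 for SDHA, 0.022 for SDHC and 0.017 for MT-ND1, and the filter of 10 counts gave 0.0015, 0.019 and 0.014 for them. SDHC was also at 0.0032 with scaling from nuclear genes and at 0.0036 in a fit of the groups compared. With siZIP7_2, upper-quartile scaling gave 0.018 for NDUFV1, 0.020 for SDHB and 0.064 for UQCRH, the filter of 10 counts gave 0.032 for UQCRH, and no filter gave -0.019 for UQCRHL. In siZIP7_2 against siZIP7_1, no filter gave -0.045 for NDUFV1 and -0.021 for UQCRH, and ATP5F1D was at 0.010 with DESeq2's size factors, 0.055 with upper-quartile scaling and 0.026 with the filter of 10 counts. Over the libraries left out, the ranges with siZIP7_1 were -0.051 to 0.029 for SDHC, -0.087 to 0.015 for COX5A, -0.52 to 0.20 for UQCRHL, -0.047 to 0.030 for MT-ND1, -0.045 to 0.059 for MT-CO2 and -0.0070 to 0.15 for NDUFB5. With siZIP7_2 they were -0.23 to 0.29 for UQCRHL and -0.0046 to 0.17 for MT-CO3, and in siZIP7_2 against siZIP7_1 they were -0.0074 to 0.012 for NDUFV1, -0.18 to 0.55 for UQCRHL and -0.029 to 0.054 for UQCRH.

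Replicate numbers did not pair the libraries, since same-numbered libraries correlated at -0.092 to 0.12 after subtraction of group means. The replicate block gave, with siZIP7_1, 15 nuclear genes higher and 41 lower and 6 mitochondrial genes higher and 4 lower. With siZIP7_2 it gave 14 and 58 nuclear and 12 and 0 mitochondrial genes. In siZIP7_2 against siZIP7_1 it gave 24 and 48 nuclear and 12 and 0 mitochondrial genes. Over all 16761 genes it called 11927, 13080 and 13242 in these comparisons, in either direction. Among the named genes it changed 2 calls, MT-ATP8 with siZIP7_1 and MT-ND5 in siZIP7_2 against siZIP7_1, which then passed the threshold. Depth limits NDUFA7, NDUFV2, UQCRHL and COX6B2, which had few reads.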
